A study of Mus musculus with 45 samples.

Results

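Messenger RNA of many p53 target genes was higher in mouse limb buds cultured with 5 µM BPAF than in control limbs. The 32 genes described here were chosen by name as targets of p53 together with the p53 gene itself, out of 35272 genes measured. All 32 were found by gene name in the deposited tables and joined over tables by gene identifier. They fall into 3 core genes (Trp53, Mdm2, Ccng1), 5 genes of cell cycle arrest (Cdkn1a, Btg2, Plk2, Zmat3, Sesn1), 11 genes of cell death (Bbc3, Bax, Pmaip1, Fas, Tnfrsf10b, Eda2r, Trp53inp1, Phlda3, Aen, Ei24, Apaf1), 5 genes of DNA repair (Polk, Ddb2, Xpc, Ercc5, Rrm2b) and 8 genes of metabolism and other roles (Tigar, Ephx1, Ak1, Dcxr, Tap1, Gdf15, Psrc1, Rps27l).

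Every group came from forelimb buds of CD1 mouse embryos on gestation day 13, kept in culture for 3, 24 or 48 h. BPAF, or bisphenol AF, is a relative of bisphenol A that carries fluorine and is used in making polymers. The control groups received the solvent DMSO, and the treated groups received 1 or 5 µM BPAF. Each dose and time had 5 libraries, which makes 9 groups and 45 libraries. Limbs were pooled in culture bottles with both sexes together, and how many embryos a library holds is not labelled. In 3 of the 45 libraries the Y-linked genes were nearly silent, with a mean log2 CPM of -2.94 in control 3 h replicate 3, -2.38 in 1 µM 3 h replicate 1 and -2.85 in 1 µM 48 h replicate 2. Whether the libraries of a group stem from separate culture days is not labelled, and p-values therefore rest on the spread between these libraries, which may be partly technical. The labels name no genetic change in any group. The treatment text once writes bisphenol A where the titles and doses have BPAF. One characteristic of 1 µM 3 h replicate 5 gives 10 uM BPA, whereas its title places it at 1 µM BPAF, and it was kept there.

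The protein p53 is a transcription factor that is made and destroyed continuously. Damage to DNA and several other stresses slow its destruction, and it then binds a response element near its target genes, whose products halt the cell cycle, repair DNA or start cell death. Mdm2 marks p53 for destruction and is itself a p53 target, which closes a feedback loop, and the loss of Mdm2 kills the mouse embryo unless p53 is removed as well. Since p53 is controlled mainly at the level of the protein, which was not measured here, the RNA of its targets is the usual readout of its activity, although other factors also act on many of these genes. Growing limb buds normally lose cells by programmed death between the digits.

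The response element is a pair of 10-base decamers separated by a short spacer. The sequences below show it in promoters of members the results turn on, as found in RefSeq promoter windows of 250 bases before to 50 bases after a gene's start (GRCm38.p6, the assembly also called mm10). A match was a pair of p53 decamers with a spacer of at most 1 base, in which each decamer kept its core CNNG and the other 16 positions held at most 3 mismatches to the p53 consensus. The consensus is its own reverse complement, so both strands were covered, and single decamers were also counted on their own. Capitals mark the match within up to 40 bases on either side, written 5′ to 3′ on the strand of the gene.
Ccng1, chr11:40755422-40755521, minus strand: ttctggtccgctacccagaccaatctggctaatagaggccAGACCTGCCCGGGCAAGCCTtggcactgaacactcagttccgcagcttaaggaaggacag
Cdkn1a, chr17:29090888-29090978, plus strand: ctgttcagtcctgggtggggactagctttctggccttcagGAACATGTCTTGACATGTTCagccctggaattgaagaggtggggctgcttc
Rps27l, chr9:66946256-66946355, plus strand: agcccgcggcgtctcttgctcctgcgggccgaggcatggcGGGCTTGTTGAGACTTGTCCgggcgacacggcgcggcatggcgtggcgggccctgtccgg
Bax, chr7:45467039-45467139, minus strand: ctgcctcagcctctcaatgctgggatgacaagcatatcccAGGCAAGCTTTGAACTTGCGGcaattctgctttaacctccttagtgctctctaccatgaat
Bbc3, chr7:16309446-16309545, plus strand: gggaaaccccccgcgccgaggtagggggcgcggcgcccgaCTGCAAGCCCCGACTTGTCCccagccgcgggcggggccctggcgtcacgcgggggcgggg
The matches of Ccng1, Cdkn1a and Rps27l held 1 mismatch each, that of Bax held 2 and that of Bbc3 held 3. Counted from the transcript start of the RefSeq window, they began at base -195 in Ccng1, -51 in Cdkn1a, -117 in Rps27l, -201 in Bax and -97 in Bbc3. The match lay in 1 of 2 windows that RefSeq gives for Cdkn1a, 1 of 2 for Rps27l and 1 of 3 for Bbc3, and in the sole window of Ccng1 and Bax. For Ccng1, Cdkn1a, Rps27l and Bbc3 that transcript start lies inside the gene span of the deposited tables, downstream of its first base.

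A promoter window was given for 25 of the 32 members, and for 7 it was not (Rrm2b, Xpc, Zmat3, Tnfrsf10b, Ddb2, Pmaip1 and Trp53inp1). The element was found in 10 of those 25 genes (40%), which besides the genes printed were Aen, Dcxr, Sesn1, Tigar and Trp53, against 3.27% of 26994 genes with a window. An exact single decamer stood in 40% of the 25 and in 9.55% of all genes with a window. Mdm2, Ei24 and Polk held such a decamer without a pair, and Bbc3, Dcxr and Tigar a pair without an exact decamer. A match describes letters and is not a measured binding site. Members with and without a match were called equally often in the comparison described next: of the 10 with a match, 6 (60%) rose under 5 µM BPAF at 48 h, and of the 15 without, 9 (60%) rose. Cdkn1a, Sesn1, Tigar and Trp53 held a match and were not called there. Mdm2, Fas, Eda2r, Psrc1, Phlda3, Gdf15, Plk2, Polk and Ercc5 had no pair in these windows and rose. Bases outside the windows were not searched.

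Read totals lay between 14901842 and 25154115 per library (median 17820524). Levels below are read counts relative to library size (CPM), scaled by the TMM method, and differences are log2 fold changes ± SE from edgeR's quasi-likelihood test. The SE is the absolute log2 fold change divided by the square root of the test's F value. Calls were made where the p adjusted over all genes tested (Benjamini-Hochberg) was under 0.05. The 95% intervals use the median degrees of freedom of each comparison, recovered from the p and SE of members and other named genes. The labelled tissue was checked against limb markers: Tbx5, a forelimb gene, lay between 200.19 and 308.61 CPM over the 45 libraries, and the hindlimb genes Tbx4 and Pitx1 lay between 17.37 and 29.08 CPM and between 1.56 and 7.84 CPM. Cartilage (Sox9 355.26 to 544.75 CPM) and muscle (Myod1 79.29 to 137.84 CPM) were present in every library. All members passed the filter on low counts in every comparison, except Gdf15 in 1 µM against control at 24 h.

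Per kilobase of gene model, members covered a wide range in control limbs. At 3 h the highest levels were those of Rps27l at 67.0 ± 3.35, Plk2 at 42.4 ± 1.12 and Trp53 at 36.9 ± 2.56 CPM per kb (mean ± SD, n = 5), and the lowest was that of Eda2r at 0.355 ± 0.092. At 48 h Rps27l was still first at 82.5 ± 4.26, followed by Cdkn1a at 64.7 ± 13.0 and Ccng1 at 44.8 ± 9.84 CPM per kb, and Rrm2b was lowest at 1.02 ± 0.151. Neighbours in that order differed by less than their spread in many places, for example Ccng1 and Bax (43.3 ± 7.04) or Plk2 (20.2 ± 1.35) and Mdm2 (20.2 ± 0.702) at 48 h. Reads of Rps27l may be uncertain, since Rps27 is nearly identical to it and the handling of shared reads is not given in the sources used here.

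**Figure D1:**
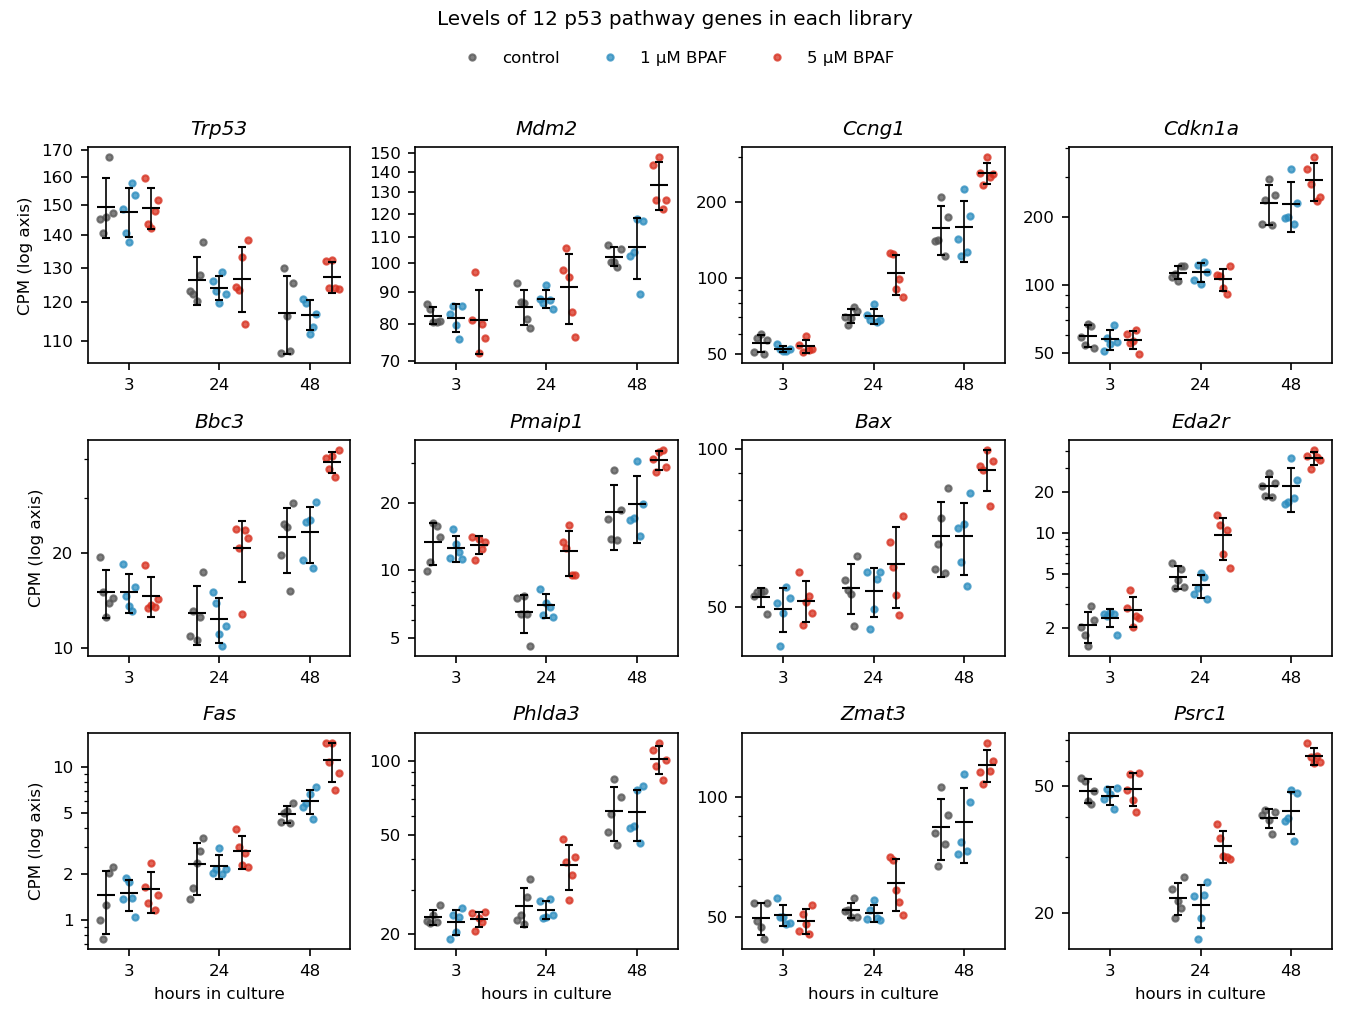
Level of 12 members in each of the 45 libraries (CPM, log axis), by hours in culture, with control in grey, 1 µM BPAF in blue and 5 µM BPAF in red; each point is a library, and bars give the mean ± SD of 5 libraries. At 48 h the red points of Mdm2, Ccng1, Bbc3, Eda2r, Fas, Zmat3 and Psrc1 lie above every grey point, while those of Trp53 and Cdkn1a overlap with the grey ones.

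Most calls were made at 48 h. Under 5 µM BPAF 19 of 32 members rose and none fell against control, while 2.74% of the 16345 genes tested were called higher and 4.42% lower. Cell death genes made up 9 of the 19, and the median difference over all members was 0.389 on the log2 scale, against -0.0019 over all genes. By role, 2 of 3 core genes, 2 of 5 arrest genes, 9 of 11 death genes, 2 of 5 repair genes and 4 of 8 genes of metabolism and other roles rose, with medians of 0.353, 0.326, 0.66, 0.025 and 0.325. In 16 members all 5 treated libraries lay above all 5 controls, which held for 3.84% of all genes tested, with 3.7% all below. Each of the 19 calls was kept in every alternative setting tried for it. At 48 h the summed level of 7 skeletal muscle markers was 1449.0 to 1776.0 CPM under 5 µM BPAF against 2645.9 to 4257.3 CPM in control, with 6 of the 7 called lower and none at 0. The summed level of 8 macrophage markers was 143.9 to 173.0 against 218.7 to 288.8 CPM, with 6 of the 8 called lower and none at 0. The 6 endothelial markers summed to 149.4 to 202.2 against 211.8 to 242.3 CPM (2 called lower). The 5 markers of limb mesenchyme summed to 858.9 to 921.1 against 786.4 to 832.7 CPM, and the 6 of cartilage to 15361.0 to 18993.0 against 12759.3 to 16027.0 CPM, with none called in either list. In bulk RNA, fewer cells of a type and less RNA per cell cannot be told apart, and the part of these markers in the member results was not tested.

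Among the core genes, the p53 gene Trp53 (mm10 chr11:69580359-69591873) did not pass the test. Its levels at 48 h were 132, 124, 132, 124 and 124 CPM under 5 µM BPAF and 107, 129.7, 116, 107 and 126 CPM in control. The groups overlapped, and the difference was 0.095 ± 0.061 (adjusted p = 0.445; 95% interval -0.034 to 0.22). Mdm2 (chr10:117688875-117710758), the ligase that marks p53 for destruction, stood at 144, 126, 148, 122 and 126 CPM under 5 µM BPAF and at 107, 101, 101, 98.7 and 106 CPM in control. Every treated library lay above every control, with a difference of 0.35 ± 0.061 (edgeR adjusted p = 0.00111). Ccng1 (chr11:40748552-40755311), which encodes cyclin G1, a phosphatase partner that acts on Mdm2, stood at 259.9, 232, 300.3, 251 and 258 CPM against 140.3, 142, 209, 122 and 175 CPM. Again no library overlapped, although control replicate 3 came near the lowest treated library, and the difference was 0.70 ± 0.11 (adjusted p = 0.000516).

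The arrest genes were divided. Cdkn1a (chr17:29090976-29100727), which encodes the cyclin-dependent kinase inhibitor p21, was not called: it stood at 323, 277, 366, 234 and 244 CPM under 5 µM BPAF and at 185, 237, 293, 184 and 249.7 CPM in control. Only replicates 1 and 3 of the treated group exceeded every control, and the difference of 0.31 ± 0.13 had an adjusted p of 0.192 (95% interval 0.035 to 0.58). Zmat3, an RNA-binding zinc finger protein, rose by 0.49 ± 0.096 from a control mean of 84.2 ± 14.8 to 121 ± 10.9 CPM (SD, n = 5 each; adjusted p = 0.00326). Plk2, a polo-like kinase, rose by 0.33 ± 0.062 from 90.8 ± 6.06 to 116 ± 7.2 CPM (adjusted p = 0.00253). Btg2, an antiproliferative factor, and Sesn1, a sestrin that restrains the growth kinase mTORC1, were not called, with differences of 0.35 ± 0.14 and -0.067 ± 0.069. In a joint fit over all 45 libraries Btg2 was called (adjusted p = 0.0174). With the replicate number as a block, edgeR also called Cdkn1a (adjusted p = 0.0251) and Btg2 (adjusted p = 0.0351) here. The labels do not say whether that number marks a shared source.

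Death genes were the largest class among the calls. The BH3-only gene Bbc3 (chr7:16308393-16318205), whose product Puma triggers mitochondrial death, stood at 40.4, 37.2, 40.9, 35.2 and 42.9 CPM under 5 µM BPAF and at 19.7, 24.8, 24.3, 15.1 and 29.1 CPM in control. No library overlapped, and the difference was 0.77 ± 0.13 (adjusted p = 0.000769). Pmaip1, which encodes the BH3-only protein Noxa, rose by 0.75 ± 0.15 from 18.2 ± 5.89 to 31.2 ± 3.02 CPM (adjusted p = 0.00497), with 4 of 5 treated libraries above every control. Bax, the pore-forming protein that BH3-only proteins activate, rose by 0.40 ± 0.092 from 68.2 ± 11.1 to 91.4 ± 8.19 CPM (adjusted p = 0.012), again with 4 of 5 above every control.

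The 3 receptors among the death genes all rose. Fas, the receptor of Fas ligand, had the largest difference of any member at 48 h: its levels were 14.5, 10.8, 14.5, 7.1 and 9.25 CPM under 5 µM BPAF and 4.37, 5.01, 5.21, 4.32 and 5.84 CPM in control. The groups did not overlap, and the difference was 1.15 ± 0.18 (adjusted p = 0.000583). Tnfrsf10b, the mouse receptor of the ligand TRAIL, stood at 58.5, 62.8, 61.2, 54.7 and 51.6 CPM against 35.7, 39.6, 42.9, 29.7 and 39.1 CPM, a difference of 0.60 ± 0.088 (adjusted p = 0.000249). Eda2r (chrX:97333840-97377216), the receptor of ectodysplasin A2, stood at 36.4, 29.2, 40.7, 36.1 and 34.4 CPM against 22.0, 18.6, 27.6, 18.3 and 23.3 CPM, a difference of 0.66 ± 0.11 (adjusted p = 0.000946). Neither receptor had a treated library within the control range. Eda2r lies on the X chromosome and the summed level of 4 Y-linked genes ranged from 0.1 to 316.6 CPM over the 45 libraries, and with the Y-linked level as a covariate its difference was 0.685.

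The other death genes act within the cell. Trp53inp1, a stress-induced protein that aids the activation of p53, stood at 153, 159.6, 178, 197 and 174 CPM under 5 µM BPAF and at 90.6, 74.3, 138, 85.9 and 115 CPM in control (0.75 ± 0.12, adjusted p = 0.000809). Phlda3, an inhibitor of the survival kinase Akt, stood at 110.2, 95.2, 118, 83.9 and 101 CPM against 51.6, 61.0, 84.3, 45.5 and 71.2 CPM (0.67 ± 0.13, adjusted p = 0.00293). Aen, an apoptosis-enhancing nuclease, stood at 82.9, 76.0, 87.3, 75.5 and 77.5 CPM against 51.7, 49.5, 70.8, 44.0 and 65.5 CPM (0.48 ± 0.10, adjusted p = 0.00654). Treated and control libraries were apart for Trp53inp1 and Aen, and for Phlda3 only treated replicate 4 fell below control replicate 3. Ei24, a protein of the endoplasmic reticulum, and Apaf1, the scaffold of the apoptosome, did not pass the test, at 0.21 ± 0.065 (adjusted p = 0.0614) and 0.12 ± 0.088 (adjusted p = 0.506). Ei24 was called with DESeq2 (adjusted p = 0.0258), in the joint fit (0.0111), without control 48 h replicate 5 (0.0149) and without 5 µM 48 h replicate 5 (0.039).

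Among the repair genes, Polk and Ercc5 rose and Ddb2, Xpc and Rrm2b were not called, where 2.74% of all genes tested were called higher. Polk, a DNA polymerase that copies past damaged bases, rose by 0.39 ± 0.094 from 20.8 ± 1.63 to 27.8 ± 3.35 CPM (adjusted p = 0.015). Ercc5, the endonuclease that cuts beside a lesion in nucleotide excision repair, rose by 0.40 ± 0.076 from 45.5 ± 4.39 to 60.9 ± 4.74 CPM (adjusted p = 0.00281). The damage sensors Ddb2 and Xpc and the ribonucleotide reductase subunit Rrm2b had differences of -0.087 ± 0.14, 0.025 ± 0.080 and -0.018 ± 0.14. Their 95% intervals ran from -0.37 to 0.20, from -0.14 to 0.19 and from -0.31 to 0.28.

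Of the genes of metabolism and other roles, Psrc1 had the smallest p of any member. This spindle-associated protein stood at 68.5, 61.7, 59.2, 62.0 and 59.4 CPM under 5 µM BPAF and at 40.6, 42.2, 39.1, 35.3 and 41.6 CPM in control, with wide separation of the groups (0.62 ± 0.067, adjusted p = 1.32e-05). Dcxr, a sugar and dicarbonyl reductase, stood at 22.7, 18.7, 22.5, 19.8 and 21.7 CPM against 9.2, 13.1, 14.1, 9.83 and 16.5 CPM (0.72 ± 0.14, adjusted p = 0.0025). Rps27l, a ribosomal protein relative, stood at 79.2, 87.3, 89.9, 81.0 and 74.0 CPM against 66.1, 63.0, 72.1, 66.0 and 69.3 CPM (0.27 ± 0.062, adjusted p = 0.0132). For both, every treated library exceeded every control. Gdf15, a secreted stress cytokine of low abundance here, rose by 1.02 ± 0.24 from 2.35 ± 0.745 to 4.85 ± 1.11 CPM (adjusted p = 0.012). The antigen peptide transporter Tap1 (0.39 ± 0.14), the epoxide hydrolase Ephx1 (0.15 ± 0.11), the adenylate kinase Ak1 (0.055 ± 0.13) and the fructose bisphosphatase Tigar (-0.20 ± 0.17) were not called.

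**Figure D2:**
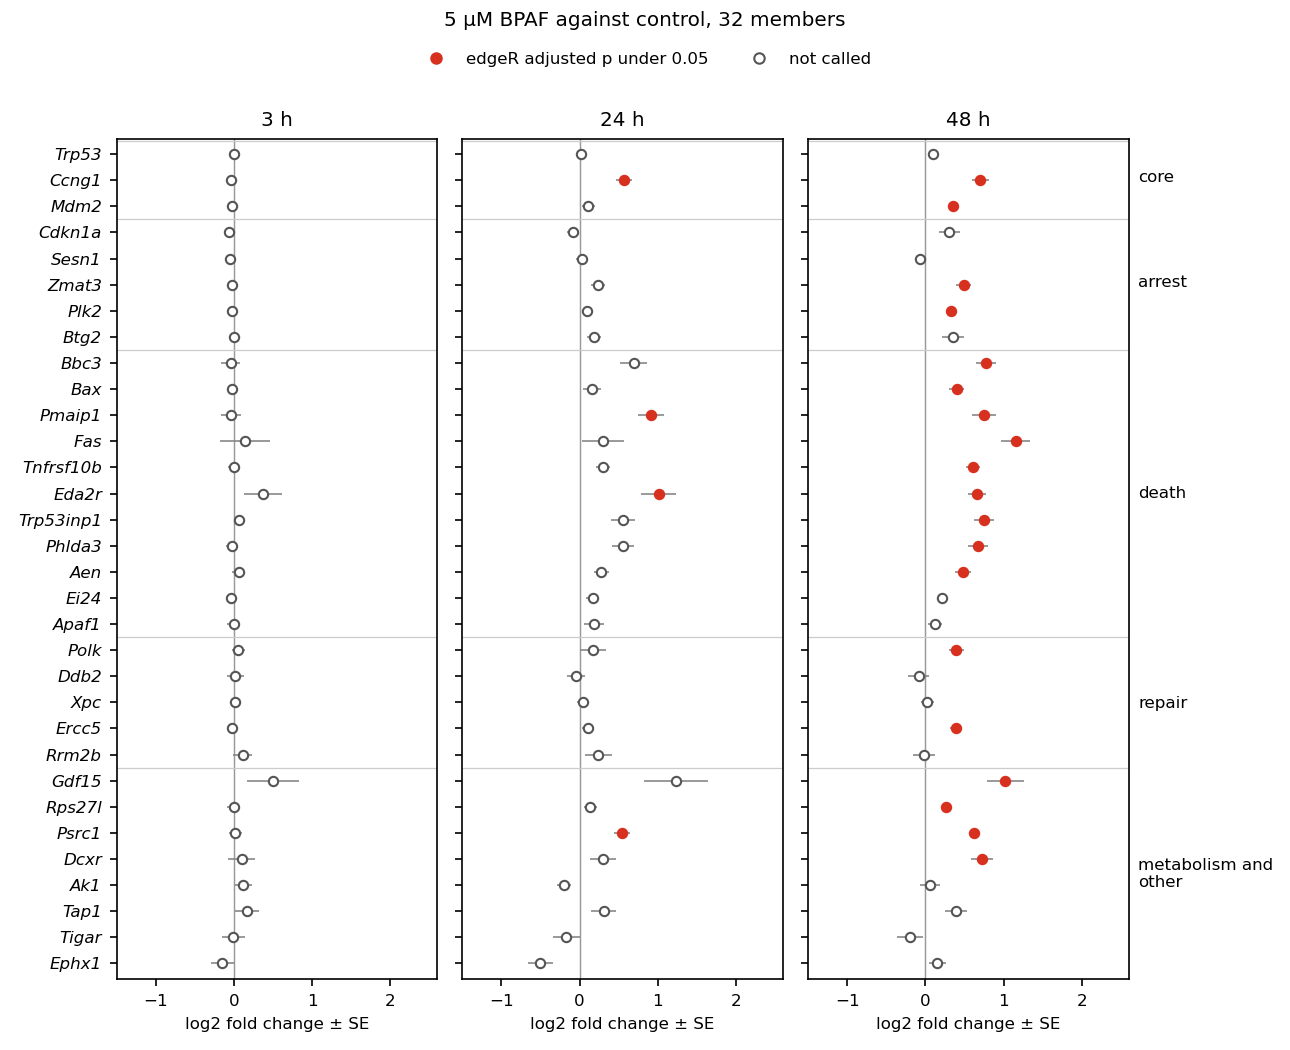
Log2 fold change ± SE of 5 µM BPAF against control for the 32 members, by role, after 3, 24 and 48 h (5 libraries a group, edgeR); filled points passed an adjusted p under 0.05. No point is filled at 3 h, 4 are filled at 24 h and 19 at 48 h, and all filled points lie to the right of 0.

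Fewer members passed the test at 24 h. Under 5 µM BPAF 4 of 32 rose and none fell, where 0.475% of the 16433 genes tested were called higher and 1.1% lower, and the member median was 0.183 against 0.0019 over all genes. These 4 were Ccng1, Pmaip1, Eda2r and Psrc1. Without 5 µM 24 h replicate 1 the count was 2, and without both libraries numbered 5, a setting chosen after seeing the data because they held the most erythroid reads, it was 8 higher and 1 lower (Ak1, at -0.30). In 3 members, which were these without Eda2r, all treated libraries lay above all controls, and this held for 1.36% of all genes, with 2.18% the other way. At this time the muscle markers summed to 1311.7 to 1789.5 CPM under 5 µM BPAF against 2159.0 to 2472.4 CPM in control, and the macrophage markers to 85.5 to 135.8 against 141.5 to 178.6 CPM, and their part in the result was not tested.

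Ccng1 at 24 h stood at 125, 124, 90.6, 99.1 and 84.0 CPM under 5 µM BPAF and at 69.8, 65.4, 69.5, 77.0 and 73.9 CPM in control. Replicates 1 and 2 of the treated group were the highest, none overlapped with control, and the difference was 0.56 ± 0.10 (edgeR adjusted p = 0.0123). Psrc1 stood at 38.0, 34.4, 30.3, 30.0 and 29.5 CPM against 23.9, 19.3, 21.9, 20.8 and 25.9 CPM (0.54 ± 0.10, adjusted p = 0.0123). Pmaip1 stood at 13.4, 12.6, 16.0, 9.57 and 9.5 CPM against 7.52, 6.42, 7.68, 6.39 and 4.58 CPM (0.91 ± 0.17, adjusted p = 0.0134). For both genes the groups were apart, and for Pmaip1 the call was lost without 5 µM 24 h replicate 1 (adjusted p = 0.0525). Eda2r stood at 13.4, 11.4, 7.01, 10.4 and 5.5 CPM against 6.03, 3.91, 4.51, 5.38 and 3.96 CPM (1.01 ± 0.23, adjusted p = 0.0355). Treated replicate 5 lay within the control range, and the call was lost in 8 of 17 alternatives, each of which left out 1 library, with adjusted p from 0.0539 to 0.122.

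Several death genes came near the threshold at 24 h without passing it. Bbc3 stood at 24.0, 20.8, 12.8, 23.8 and 22.5 CPM under 5 µM BPAF and at 10.9, 13.1, 10.6, 12.5 and 17.5 CPM in control (0.69 ± 0.17, adjusted p = 0.0588). Phlda3 stood at 48.5, 38.9, 27.4, 34.6 and 40.7 CPM against 22.8, 23.9, 22.0, 28.3 and 33.2 CPM (0.55 ± 0.14, adjusted p = 0.0708). Trp53inp1 stood at 142, 158, 105, 134 and 76.0 CPM against 88.2, 80.7, 80.9, 96.7 and 74.0 CPM (0.56 ± 0.15, adjusted p = 0.0876). In each of these genes 4 of 5 treated libraries exceeded every control and 1 did not, replicate 3 for Bbc3 and Phlda3 and replicate 5 for Trp53inp1. All 3 were called with DESeq2, and the authors' deposited table, at its adjusted p under 0.05, holds 7 members higher at 24 h and 20 at 48 h. Fas, the largest responder at 48 h, stood at 3.97, 3.01, 2.3, 2.77 and 2.22 CPM under 5 µM BPAF against 1.37, 1.62, 2.37, 2.84 and 3.45 CPM at 24 h, overlapping widely (0.30 ± 0.27, adjusted p = 0.758).

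Among the other named members at 24 h, Trp53 stood at 124, 124, 133, 114 and 138 CPM under 5 µM BPAF and 123, 122, 120.3, 128 and 138 CPM in control. Cdkn1a stood at 111, 109, 97.1, 91.8 and 121 CPM against 109, 112, 104, 121 and 121 CPM. Mdm2 stood at 97.7, 106, 95.1, 83.6 and 76.4 CPM against 93.1, 86.8, 86.7, 81.6 and 78.8 CPM. All 3 overlapped with control, with differences of 0.013 ± 0.064, -0.088 ± 0.077 and 0.11 ± 0.083. Aen, Tnfrsf10b, Dcxr and Rps27l, called at 48 h, had differences of 0.28 ± 0.091, 0.30 ± 0.093, 0.30 ± 0.17 and 0.14 ± 0.085 and were not called. Over the 32 members the differences ran from -0.51 ± 0.16 in Ephx1 to 1.23 ± 0.41 in Gdf15, neither of which was called.

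After 3 h no member was called in either direction with edgeR under 5 µM BPAF, where 0.114% of 16651 genes were called higher and 0.0661% lower. No member had an unadjusted p under 0.05, against 1424 of 16651 genes with edgeR and 1637 of 31159 with DESeq2. The member median was 0.001, the differences ran from -0.15 ± 0.15 in Ephx1 to 0.50 ± 0.33 in Gdf15, and every member overlapped with control, where 0.799% of all genes did not and were higher and 0.937% were lower. Cdkn1a stood at 61.1, 55.6, 57.0, 63.3 and 49.9 CPM under 5 µM BPAF and 59.0, 54.6, 67.0, 66.1 and 52.8 CPM in control, with a 95% interval of the difference from -0.21 to 0.096. Ccng1 stood at 54.4, 51.1, 59.2, 51.9 and 52.6 CPM against 51.2, 58.1, 60.4, 50.3 and 56.8 CPM, with an interval from -0.16 to 0.094. Mdm2 stood at 81.4, 96.8, 72.0, 80.1 and 76.2 CPM against 86.0, 84.5, 80.6, 80.8 and 81.1 CPM, with an interval from -0.16 to 0.12. These intervals lie below the 48 h differences of Ccng1 and Mdm2. For Eda2r, at 2.82, 3.79, 2.03, 2.44 and 2.37 CPM against 2.03, 1.77, 1.46, 2.89 and 2.3 CPM, the interval was wider, from -0.13 to 0.88.

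Whether the effect of 5 µM BPAF differed between times was tested directly, over 20 libraries for each pair of times. Between 48 and 3 h the effect was larger for 12 members and smaller for none, against 0.757% of all genes with a larger effect and 2.04% with a smaller one. These were Psrc1 (0.61 ± 0.11), Tnfrsf10b (0.61 ± 0.12), Ccng1 (0.75 ± 0.14), Plk2 (0.37 ± 0.071), Ercc5 (0.43 ± 0.096), Bbc3 (0.82 ± 0.19), Trp53inp1 (0.70 ± 0.16), Phlda3 (0.70 ± 0.17), Zmat3 (0.52 ± 0.13), Mdm2 (0.38 ± 0.095), Pmaip1 (0.80 ± 0.22) and Bax (0.43 ± 0.12). The last pair had adjusted p of 0.0464 and 0.0473 and lost the call in 18 and 17 of 26 alternatives. Between 24 and 3 h only Ccng1 passed (0.61 ± 0.12, adjusted p = 0.0257; 0.0627% of all genes were called with a larger effect), and its call was lost in 14 of 26 alternatives, for example without 5 µM 24 h replicate 1 and without 5 µM 24 h replicate 2. Between 48 and 24 h no member was called with edgeR, where 0.00578% of all genes had a larger effect and 0.0635% a smaller one. So the larger number of calls at 48 h than at 24 h was not accompanied by a called difference of effects for any single member. An unadjusted p under 0.05 was found for 7 of 32 members with edgeR, against 806 of 17315 genes. With DESeq2 it was found for 7 members, against 1020 of 32755 genes. These tests share libraries with the comparisons at each time.

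At 1 µM BPAF no member was called with edgeR at any time, and none at 3 and 24 h and 1 at 48 h, Rps27l at -0.13 ± 0.060, had an unadjusted p under 0.05 (none with DESeq2). With edgeR such a p was found for 424 of 16631 genes at 3 h, 439 of 16439 at 24 h and 621 of 16479 at 48 h. The count of called members was also 0 without the 3 h library whose characteristic names another compound. Over all genes the call was made for 0% at 3 h, 0.00608% at 24 h and 0% at 48 h, in either direction. No member had groups that did not overlap, whereas among all genes 0.204, 0.231 and 0.212% had all 1 µM libraries higher at 3, 24 and 48 h, and 0.271, 0.249 and 0.34% had them lower. At 48 h the member median was 0.035 and the differences ran from -0.24 ± 0.17 in Tigar to 0.28 ± 0.16 in Fas. Ccng1 stood at 143, 122, 224, 127 and 176 CPM under 1 µM BPAF, and the 95% interval of its difference from control ran from -0.33 to 0.34. Mdm2 stood at 103, 104, 118, 89.3 and 117 CPM, with an interval from -0.099 to 0.20. Bbc3 stood at 19.1, 25.2, 25.6, 18.0 and 29.2 CPM, with an interval from -0.29 to 0.38. For these 3 genes the interval at 1 µM ended below the difference seen at 5 µM, with the same 5 control libraries in both comparisons. Fas stood at 5.53, 5.86, 6.73, 4.62 and 7.42 CPM, with an interval from -0.062 to 0.62. Psrc1 stood at 39.0, 39.8, 48.5, 33.6 and 47.7 CPM and Eda2r at 16.3, 16.8, 35.3, 18.0 and 24.3 CPM, both spread about their controls, with replicate 3 the highest in each.

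The doses were also compared with each other. At 48 h 17 members were higher at 5 µM than at 1 µM and none was lower, against 2.19% of 16349 genes called higher and 3.77% lower. The 17 comprised 10 of 11 death genes, Ccng1, Mdm2, Zmat3, Btg2, Psrc1, Dcxr and Rps27l, and no repair gene. The largest of these differences were Dcxr at 0.96 ± 0.16, Fas at 0.88 ± 0.19, Bbc3 at 0.73 ± 0.12 and Trp53inp1 at 0.70 ± 0.11, with adjusted p of 0.00105, 0.0092, 0.000549 and 0.000582. In 13 members all 5 µM libraries lay above all 1 µM libraries at 48 h, and in none below, which held for 3.25 and 3.47% of all genes. For Trp53, 1 of these 13, the difference of 0.11 ± 0.048 was not called (adjusted p = 0.245). At 24 h 6 members were higher at 5 µM, namely Eda2r at 1.22 ± 0.23, Pmaip1 at 0.80 ± 0.15, Bbc3 at 0.75 ± 0.16, Psrc1 at 0.61 ± 0.11, Phlda3 at 0.60 ± 0.12 and Ccng1 at 0.57 ± 0.10, against 0.242% of 16496 genes higher and 0.946% lower. In 5 members, Ccng1, Pmaip1, Eda2r, Psrc1 and the uncalled Plk2, the 5 µM libraries of 24 h were all above those of 1 µM, which held for 0.988% of all genes, with 1.96% below. The libraries of Eda2r at 24 h were 3.52, 3.95, 5.04, 4.76 and 3.27 CPM at 1 µM, all below the lowest 5 µM library. The muscle markers summed to 2979.8 to 3309.2 CPM and the macrophage markers to 184.4 to 233.0 CPM at 1 µM and 48 h, with 7 of 7 and 5 of 8 called lower at 5 µM than at 1 µM, 2 of 6 endothelial markers were called lower, and 4 of 6 cartilage markers higher. At 24 h 5 of 7 muscle, 1 of 8 macrophage and 1 of 6 endothelial markers were called lower, and the part of these markers was not tested. At 48 h 12 of the 17 calls were kept in every alternative, and that of Eda2r was lost in 7 of 17, among them the one with the Y-linked level as a covariate. Without 1 µM 24 h replicate 5, or without 5 µM 24 h replicate 1, 3 members remained called higher at 24 h. At 3 h no member was called between the doses with edgeR, where 0.03% of 16681 genes were called higher and 0.00599% lower. None had an unadjusted p under 0.05 with edgeR or DESeq2, against 989 of 16681 and 1165 of 31086 genes. All members overlapped, while 0.558% of all genes were apart with 5 µM higher and 0.593% with it lower.

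Time in culture changed most of these genes in control limbs. From 3 to 48 h 20 members rose and 4 fell, against 25.6% of 16539 genes higher and 25.4% lower, and the member median was 0.354. Eda2r rose the most, by 3.41 ± 0.17, from 2.03, 1.77, 1.46, 2.89 and 2.3 CPM at 3 h to the 48 h levels given above. Cdkn1a rose by 1.94 ± 0.11, from 59.0, 54.6, 67.0, 66.1 and 52.8 CPM, and no library of one time overlapped with the other for either gene. The other members with the smallest p were Ak1 (1.75 ± 0.11), Ccng1 (1.51 ± 0.11), Ephx1 (1.62 ± 0.14), Aen (1.30 ± 0.11) and Phlda3 (1.43 ± 0.13) among those that rose, and Plk2 (-1.06 ± 0.056) among those that fell. Trp53 fell by 0.34 ± 0.066, from 145, 141, 146, 167 and 147 CPM at 3 h, with every 48 h library lower. Xpc fell by 0.50 ± 0.069 and Psrc1 by 0.28 ± 0.072, and Plk2 fell from 191 ± 5.02 to 90.8 ± 6.06 CPM. Over the same interval the 6 cartilage markers went from a sum of 3630.8–4038.0 CPM to 12759.3–16027.0 CPM (5 called higher), the muscle markers from 752.6–972.8 to 2645.9–4257.3 CPM (6 of 7 higher) and the 8 erythroid markers from 1789.4–2819.3 to 495.3–796.7 CPM (7 lower). The macrophage markers went from 72.5–87.8 to 218.7–288.8 CPM (6 of 8 higher), none of these markers was at 0, and their part in the member results was not tested.

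From 3 to 24 h the members' counts lay near those of all genes: 5 of 32 rose and 8 fell, against 19.1% of 16481 genes higher and 18.7% lower. Eda2r (1.18 ± 0.21), Ak1 (1.01 ± 0.077), Cdkn1a (0.91 ± 0.071), Aen (0.56 ± 0.076) and Ccng1 (0.35 ± 0.064) rose. Psrc1 (-1.12 ± 0.085), Gdf15 (-1.08 ± 0.37), Pmaip1 (-1.04 ± 0.16), Plk2 (-0.69 ± 0.057), Btg2 (-0.43 ± 0.085), Trp53inp1 (-0.41 ± 0.078), Xpc (-0.29 ± 0.057) and Trp53 (-0.25 ± 0.058) fell. Libraries of the 2 times were apart upward for 5 of the 32 members and downward for 6, near the 13.6 and 12.4% of all genes. From 24 to 48 h 21 rose and 2, Plk2 (-0.39 ± 0.067) and Xpc (-0.23 ± 0.070), fell, against 9.71% of 16445 genes higher and 6.57% lower. Here the smallest p belonged to Eda2r (2.21 ± 0.15), Ccng1 (1.14 ± 0.11), Psrc1 (0.83 ± 0.084), Cdkn1a (1.01 ± 0.11), Phlda3 (1.26 ± 0.15), Ephx1 (1.25 ± 0.15), Pmaip1 (1.48 ± 0.19) and Zmat3 (0.69 ± 0.097). Psrc1 and Pmaip1 thus fell in the first interval and rose in the second: control Psrc1 went from 48.4 ± 4.05 to 22.4 ± 2.6 and 39.8 ± 2.75 CPM, and Pmaip1 from 13.4 ± 2.87 to 6.52 ± 1.24 and 18.2 ± 5.89 CPM. From 24 to 48 h libraries were apart for 18 members upward and 2 downward (7.3 and 5.1% of all genes), and from 3 to 48 h for 14 and 4 (18.6% of all genes in each direction). The 3 time comparisons share their libraries pairwise. Xpc in the second interval lost its call in 8 of 16 alternatives, Gdf15 in the first in 9, and Bax and Tnfrsf10b, which rose in the second, in 7 and 10.

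**Figure D3:**
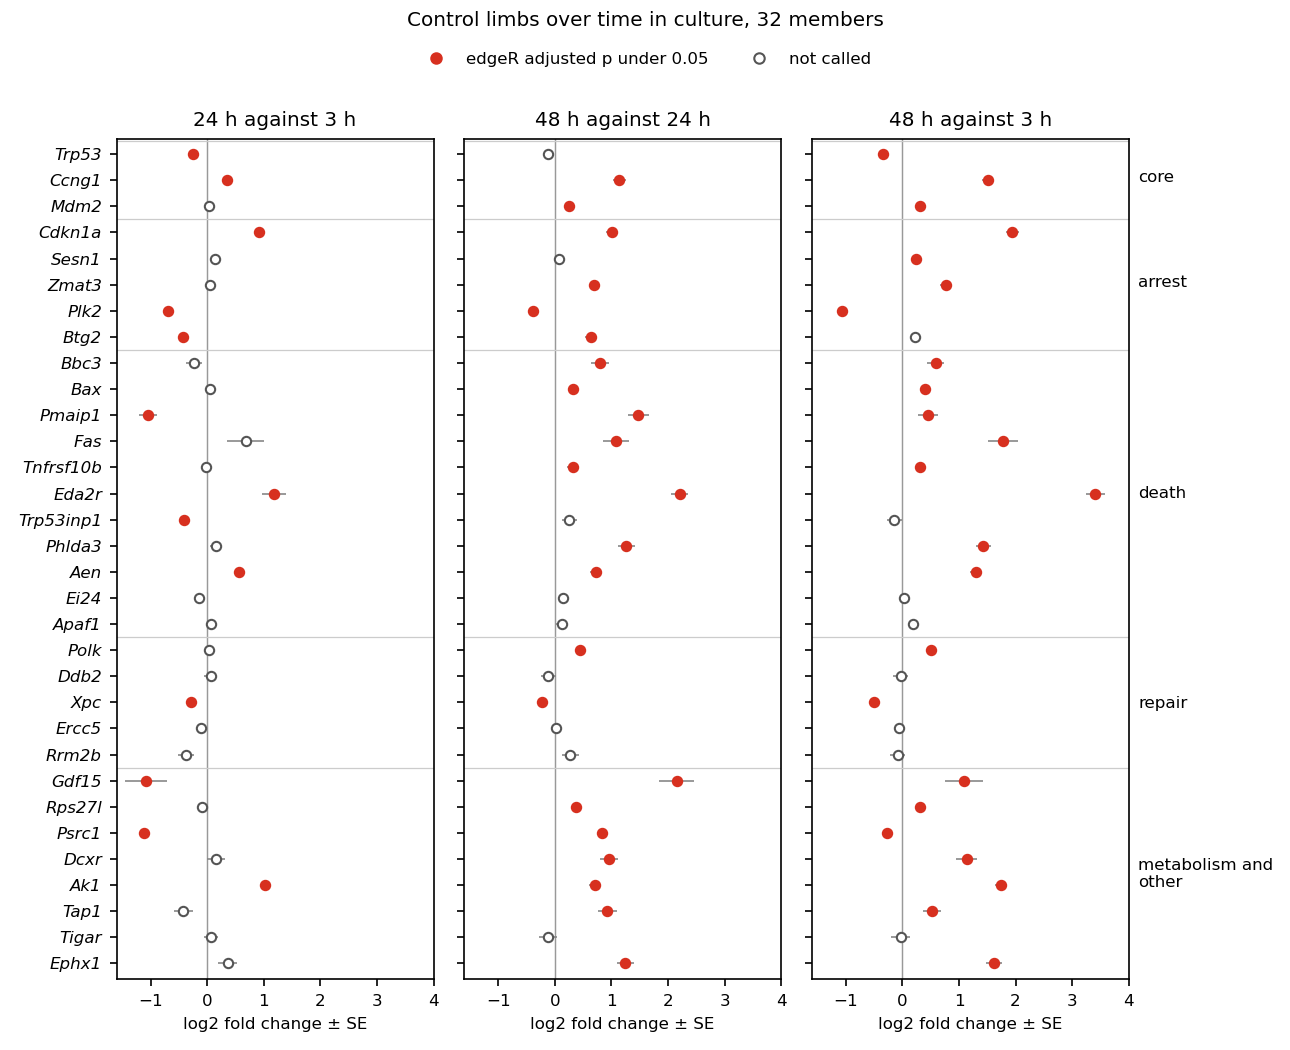
Log2 fold change ± SE between times in control limbs for the 32 members, by role (5 libraries a group, edgeR); filled points passed an adjusted p under 0.05. Eda2r reaches 3.41 and Cdkn1a 1.94 from 3 to 48 h, while Trp53, Plk2, Xpc and Psrc1 lie to the left of 0.

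The differences over time and under BPAF are set side by side here for a few members. Cdkn1a rose by 1.94 ± 0.11 over 48 h of control culture and differed by 0.31 ± 0.13 under 5 µM BPAF at 48 h. Plk2 fell by 1.06 ± 0.056 over time and rose by 0.33 ± 0.062 under 5 µM BPAF. Ak1 and Ephx1 rose over time and had BPAF differences of 0.055 ± 0.13 and 0.15 ± 0.11 at 48 h. Ercc5 had a time difference of -0.060 ± 0.074, not called, and rose by 0.40 ± 0.076 under BPAF. Both kinds of comparison use the 48 h control libraries.

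Libraries of a group stood apart from each other in their average over the members at 48 h. As the mean over the 32 members of the log2 difference from the control mean, control libraries stood at -0.048, -0.043, 0.183, -0.204 and 0.112 for replicates 1 to 5. The 1 µM libraries stood at -0.062, -0.03, 0.271, -0.176 and 0.151, and the 5 µM libraries at 0.467, 0.395, 0.531, 0.355 and 0.375. Replicate 3 was the highest and replicate 4 the lowest in all 3 groups, and each 5 µM library exceeded every control and every 1 µM library. At 24 h the 5 µM libraries stood at 0.364, 0.345, 0.112, 0.159 and 0.134, so that replicates 1 and 2 lay above the other 3, and the controls lay between -0.033 and 0.074. At 3 h all 15 libraries lay between -0.052 and 0.057. Split by role, the death genes of the 5 µM libraries stood between 0.54 and 0.744 at 48 h and between 0.266 and 0.656 at 24 h, and the repair genes between 0.075 and 0.216 at 48 h.

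**Figure D4:**
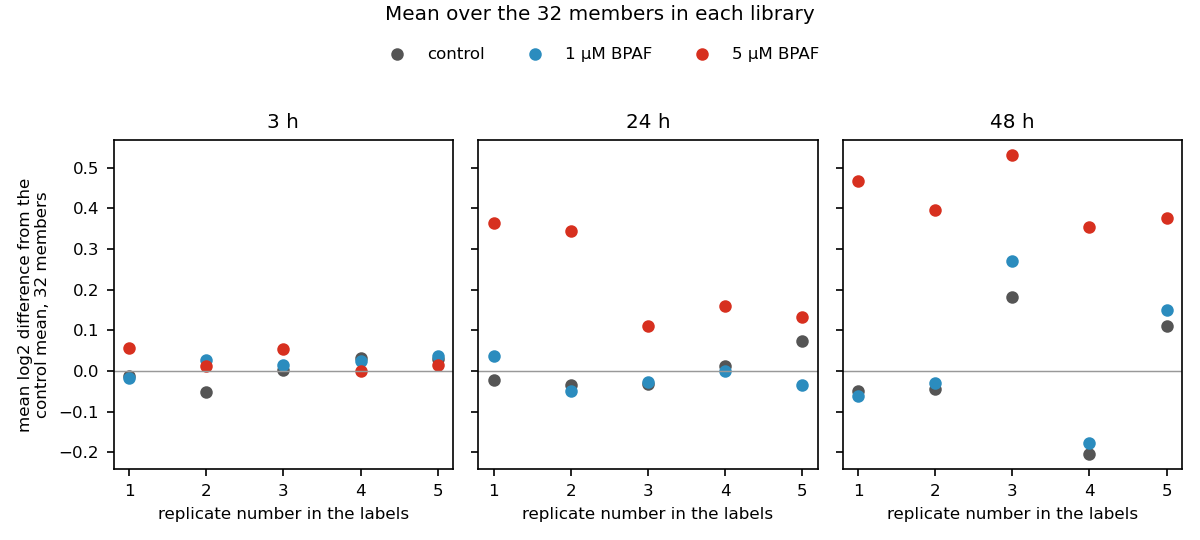
Mean over the 32 members of the log2 difference from the control mean of the same time, for each library, by the replicate number of its label, with control in grey, 1 µM BPAF in blue and 5 µM BPAF in red. At 48 h the red points lie between 0.355 and 0.531, above all others, and replicate 3 is highest and replicate 4 lowest at each dose.

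Other genes of the pathway were read from lists. Of 24 further p53 targets, 23 were tested at 48 h, of which 6 rose and none fell under 5 µM BPAF, against 2.74% of all genes higher, with a median of 0.272. Those with the smallest p were the sestrin Sesn2 (0.67 ± 0.096, adjusted p = 0.000213), the phosphatase Ptprv (0.52 ± 0.081, adjusted p = 0.000456) and Zfp365 (0.82 ± 0.14, adjusted p = 0.00125). At 24 h 1 of 23, again Sesn2 (0.43 ± 0.10, adjusted p = 0.0419), rose, against 0.475% of all genes. At 3 h none of 22 was called with edgeR, with a median of -0.108. Of the 22, 6 had an unadjusted p under 0.05, against 1424 of 16651 genes. DESeq2 called 2 of 23 lower, Cyfip2 and Ddit4 (named after their values were seen), and none higher, against 63 of 31159 genes lower. Of 21 regulators of p53, 20 were tested and 1 rose at 48 h, the ubiquitin ligase Rchy1 (0.24 ± 0.062, adjusted p = 0.0226), with a median of -0.018. None was called at 24 h with edgeR or DESeq2. None had an unadjusted p under 0.05 there, against 1902 of 16433 genes with edgeR and 2201 of 30765 with DESeq2. Mdm4, the partner of Mdm2, rose in control limbs from 3 to 24 h (0.56 ± 0.082, adjusted p = 3.78e-05). The checkpoint kinase Chek1 (-0.77 ± 0.069, adjusted p = 1.39e-07) and Sirt1 (-0.495 ± 0.074, adjusted p = 4.45e-05) fell. In this comparison DESeq2 called 1 of 21 regulators higher and 7 lower, against 3282 and 3149 of 31614 genes.

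Genes of cell division that the DREAM complex represses when p21 is induced were not called under 5 µM BPAF. Of 20, none passed in either direction at 24 h or at 48 h with edgeR or DESeq2. With edgeR 1 and 6 had an unadjusted p under 0.05, against 1902 of 16433 and 3153 of 16345 genes. With DESeq2 the counts were 0 and 4, against 2201 of 30765 and 3503 of 30506 genes. The medians were -0.057 and -0.08. In control limbs all 20 fell from 3 to 24 h, against 18.7% of all genes, with a median of -1.251, for example Top2a from 453.62 ± 24.55 to 192.32 ± 7.02 CPM (SD, n = 5 each). From 24 to 48 h none was called with edgeR and 1 with DESeq2. With edgeR 3 had an unadjusted p under 0.05, against 4672 of 16445 genes.

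Many targets of the stress factors ATF4 and CHOP rose beside the p53 targets. Of 20, 13 rose and none fell under 5 µM BPAF at 48 h, against 2.74% of all genes higher, with a median of 0.389, the same as over the p53 members. Trib3, a pseudokinase, went from 12.9 ± 1.27 to 35.39 ± 10.27 CPM (1.43 ± 0.16, adjusted p = 1.33e-05), and the amino acid transporter Slc7a5 from 102.88 ± 9.58 to 150.74 ± 20.76 CPM (0.53 ± 0.084, adjusted p = 0.000547; SD, n = 5 each). At 24 h 3 of 20 rose, namely Trib3, Sesn2 and Slc7a5, against 0.475% of all genes. Sesn2 and Ddit4 stand in both this list and the list of further p53 targets. In control limbs from 3 to 24 h 14 of 20 fell and none rose, against 18.7% of all genes lower, and from 24 to 48 h 11 rose and none fell, against 9.71% higher.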

How the data were processed

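RNA of the 45 limb bud libraries was selected by poly-A, per the labels' protocols. Per the submitters' processing notes, CASAVA 1.8, STAR 2.5, HTSeq 0.6.1, DESeq2 and the mouse build mm10 were used, and their roles, strand settings and filters are not given in the sources used here. The authors deposited 9 tables, each of 1 comparison. The read count per gene and library is as the authors deposited it, not normalized. The deposited normalized signal of each library is the count divided by a size factor (largest relative deviation 5.5e-10). The FPKM deposited by the authors equals, up to a factor per library, the count divided by gene length in 100.0% of values within 1 percent. The log2 fold change and the p-value with its adjusted p-value were deposited by the authors and are used only where their table is named.

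The tables were joined by gene identifier, with a gene missing from a table read as 0 (11.7% of combinations; a table lists genes with at least 2 reads). Counts were tested with edgeR 4.0.16 in R 4.3.3 (TMM scaling, filterByExpr at 10 reads a library and 15 in total, quasi-likelihood F-test, Benjamini-Hochberg), in 12 pairwise comparisons of 10 libraries and 3 of effects over 20. CPM were scaled over all 45 libraries. The procedure was tested on simulated data.

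The members, lists, promoter rule and tests were chosen with earlier results of these data known. The genes chosen for library values were Trp53, Cdkn1a, Mdm2, Ccng1, Eda2r and the 12 members with the smallest p among those called in any BPAF comparison (14 genes in all). Their values in every library are given for 5 µM BPAF and control at 48 h. At other times and at 1 µM BPAF values are given for part of these genes, and for others where a result turns on them. For controls over time, up to 8 called members with the smallest p and every member lower are named, and from each other list up to 3. Sco2, of the list of further p53 targets, was not matched by name.

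Alternatives were DESeq2 1.42.0, RLE scaling, no filter, the replicate number as a block, the Y-linked level as a covariate, a joint fit over 45 libraries and leaving out each library. Leaving out both 24 h libraries numbered 5 was added after seeing the data. By the rule that every same-numbered pair correlates above 0.1, the replicate numbers pair the libraries only in 1 µM BPAF against control at 24 h, where the deviations of same-numbered libraries correlated at 0.114 to 0.43. With the block, 0 members were called there, as without it. No 2 libraries were duplicates. Libraries of 14901842 reads or more limit precision mainly for members of low level such as Gdf15 and Fas.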

Additional observations from a re-analysis of the deposited data

Results flagged for a closer look

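Within groups of 5 libraries, the library farthest out was examined for 14 members in 9 groups, 126 groups in all, of which chance alone would give about 1 in 20 by the measure used (Dixon's 95% value). In 4 a library stood apart. Trp53 stood at 167.37 CPM in control 3 h replicate 4, against 140.81 to 147.34 in the others. Eda2r stood at 1.76 CPM in 1 µM 3 h replicate 5, against 2.43 to 2.62, and this is the library whose characteristic names another compound and dose. Bbc3 stood at 18.4 CPM in 5 µM 3 h replicate 1, against 13.35 to 14.32. Fas stood at 2.99 CPM in 1 µM 24 h replicate 3, against 2.02 to 2.16.

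The effect of 5 µM BPAF differed between times by the edgeR test of the difference itself. Between 24 and 3 h this held for Ccng1, at 0.61 on the log2 scale, with the call lost in 14 of 26 alternatives. Between 48 and 3 h the differences were 0.747 for Ccng1, 0.383 for Mdm2, 0.822 for Bbc3, 0.431 for Bax, 0.798 for Pmaip1 and 0.614 for Tnfrsf10b. For Trp53inp1, Zmat3, Phlda3, Plk2, Psrc1 and Ercc5 they were 0.698, 0.524, 0.702, 0.366, 0.609 and 0.43. Between 48 and 3 h the calls of Pmaip1 and Bax were lost in 18 and 17 of 26 alternatives, and those of Mdm2 and Zmat3 in 2 each.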

How the results depend on the processing

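No result reversed its direction under any alternative tried. The count of members called under 5 µM BPAF at 24 h, 4 with edgeR, was 7 with DESeq2, 7 with no filter, 7 in a joint fit over 45 libraries, and 9 without both libraries numbered 5, each time with all 4 among them. The count for the effect at 24 h minus 3 h, 1 with edgeR, was 3 with DESeq2, 2 with no filter, 0 with the Y-linked covariate and 0 in the joint fit. The cause was not tested. With each library left out in turn, counts ranged over 2 to 6 for 5 µM BPAF at 24 h, 19 to 20 at 48 h, 3 to 9 for 5 against 1 µM at 24 h and 12 to 20 at 48 h. They ranged over 12 to 17, 20 to 23 and 23 to 25 for controls at 24 against 3, 48 against 24 and 48 against 3 h. For the effect they ranged over 0 to 4 at 24 minus 3 h and 9 to 13 at 48 minus 3 h, and the counts of 0 stayed at 0.

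With the replicate number as a block, 7 members were called under 5 µM BPAF at 24 h, 21 at 48 h, 7 and 19 for 5 against 1 µM, 3 for the effect at 24 minus 3 h and 13 at 48 minus 3 h. The control counts with the block were 13, 22 and 25. Under 5 µM BPAF against control at 48 h the block also called Cdkn1a (0.31, adjusted p = 0.0251) and Btg2 (0.34, 0.0351), so that 4 of 5 arrest genes were called, and no other setting called Cdkn1a there. For 5 against 1 µM at 48 h Cdkn1a, not called otherwise, was called with the block (0.34, 0.00653), with the block by code numbers (0.34, 0.00484) and without 1 µM 48 h replicate 3 (0.49, 0.0127). Outside 1 µM against control at 24 h not every pair of same-numbered libraries correlated above 0.1 in its deviations. The range was -0.034 to 0.204 for 5 µM BPAF against control at 24 h and 0.026 to 0.369 at 48 h, where 3 and 4 of 5 libraries correlated best with their own number. It was 0.067 to 0.489 for 1 µM against control and 0.099 to 0.429 for 5 against 1 µM at 3 h, where 5 of 5 did, which is a hint from the data, not from the design. In the 1 µM 48 h group the titles and codes disagree on which library is number 1 and which is 2, and with the numbers of the codes the block gave 20 for 5 against 1 µM at 48 h. Over all genes the block moved the calls under 5 µM BPAF at 24 h from 78 higher and 180 lower to 250 and 405, and DESeq2 gave 202 and 315. Each called member was checked in each comparison and alternative setting. The call was lost in 118 of these checks that left out a library and in 21 of the others. It was kept in 1202 and 714.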
